A study of Homo sapiens with 44 samples.

Results

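THP-1 cells, a human acute monocytic leukemia line, that carried a hairpin RNA against GSK3A were compared with THP-1 cells that carried a scrambled hairpin. The members are 7 of the 44 arrays of the series, chosen by their labels: 4 GSK3A hairpin arrays, 2 with construct 5 (hairpin 5) and 2 with construct 6 (hairpin 6), and 3 control arrays with the scrambled construct. Total RNA was hybridized to an Affymetrix high-throughput human array, and the deposited intensities were summaries per probe set. In all groups, cells grew in RPMI medium with serum, puromycin at 1 µg per mL was added 48 h after infection, and RNA was taken 48 h later, so the controls had been infected and selected as well. The labels call the replicates biological and say no more of how they were grown or infected, so the p-values reflect the spread among arrays alone, which may be technical. The other 3 lines of the series, HL-60, MOLM-14 and U937, carried the same constructs, and their 21 GSK3A hairpin and control arrays serve as a comparison.

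GSK3A and its paralog GSK3B encode the 2 forms, alpha and beta, of glycogen synthase kinase 3, an enzyme that is active in resting cells. It phosphorylates glycogen synthase, beta-catenin and the MYC protein, among many others, and phosphorylation marks the last 2 for destruction. In myeloid leukemia the kinase has been studied as a target whose loss moves blasts toward mature monocytes or granulocytes. THP-1 carries a rearranged KMT2A gene and already resembles a monoblast, with receptors and transcription factors of the monocyte lineage. The study asked whether loss of GSK3A has such an effect.

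The arrays were even in quality. Median intensity as deposited, before the normalization used here, was 22.3 to 22.8 on the GSK3A hairpin arrays and 22.4 to 22.7 on the control arrays. The ratio of the 3′ to the 5′ control probe set was 1.13 to 1.19 on the hairpin arrays and 1.15 to 1.25 on the control arrays for GAPDH, and 1.47 to 1.57 and 1.55 to 1.58 for actin. Of 18 markers that define THP-1 and monocytes, 15 were measured and 13 averaged over 32 intensity units, among them the adaptor TYROBP (1292 on GSK3A hairpin arrays and 1169.6 on control arrays) and the transcription factor IRF8 (1957 and 2165). SPI1, which encodes the myeloid factor PU.1, read near the array median at 21.1 and 21.9. Their summed level was 11221 to 12261 on the hairpin arrays and 10704 to 10950.2 on the control arrays. The array cannot tell fewer cells of a state from less RNA per cell.

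No fall of the targeted transcript passed the test. On the brighter GSK3A probe set, normalized intensity was 37.3 and 39.1 with hairpin 5, 30.1 and 29.4 with hairpin 6, and 30.6, 35.4 and 39.1 on control arrays. Hairpin 6 lay below every control array, and hairpin 5 overlapped with the controls. The mean change of both hairpins was log2 −0.03 ± 0.05 (limma, adjusted p = 0.996), with 0.09 for hairpin 5 (0.754) and −0.15 for hairpin 6 (0.35). All log2 changes here are hairpin minus control on log2(intensity + 16), which understates the change of dim genes. The error after ± is the standard error of the fit. The fit takes the spread of a gene from the replicates of all lines of the series. The error can therefore be wider or narrower than the THP-1 arrays alone would give. The second GSK3A probe set averaged 17.9 on hairpin arrays and 19.1 on control arrays, below the array median. GSK3B averaged 179 and 184 (log2 −0.04 ± 0.09, adjusted p = 0.997). The labels report protein blots, which were not analysed here. The changes below are therefore those of arrays labelled with a GSK3A hairpin, and the level of GSK3A protein behind them is not known from these files.

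Across 12165 genes, 148 rose and 96 fell with the mean of both hairpins (limma, adjusted p under 0.05), 1.22% and 0.789% of the genes tested and 2.01% together. Few changes were large, since only 19 of the rising genes and 3 of the falling genes reached 1.5-fold. Of the 244 called genes, 183 had all 4 hairpin arrays outside the range of the controls. The calls come from the same arrays, so this count is no separate support for them. Among all genes, 7.02% had all hairpin arrays above the controls and 6.16% all below. At an unadjusted p under 0.05 there were 1220 genes. The count fell to 126, 121 and 141 without control replicate 1, 2 or 3, to 153 and 141 without hairpin 5 replicate 1 or 2, and to 145 without hairpin 6 replicate 2. Within plate columns 1 to 6 alone 23 genes passed, and within columns 7 to 11 alone 4 passed, with 2 or fewer control arrays in each. The fits within plate columns took hairpins 5 and 6 of a line as replicates of each other. The difference between hairpins then counts as spread, so their counts cannot be set directly beside the 244. With the plate column as a block over all arrays 905 passed. The fit measures the spread between replicate arrays of a hairpin, and with the hairpins as a random block 21 genes passed (correlation 0.146), among them CADM1, ATOX1, CEACAM6 and LGALS3BP of the 36 named below.

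**Figure D1:**
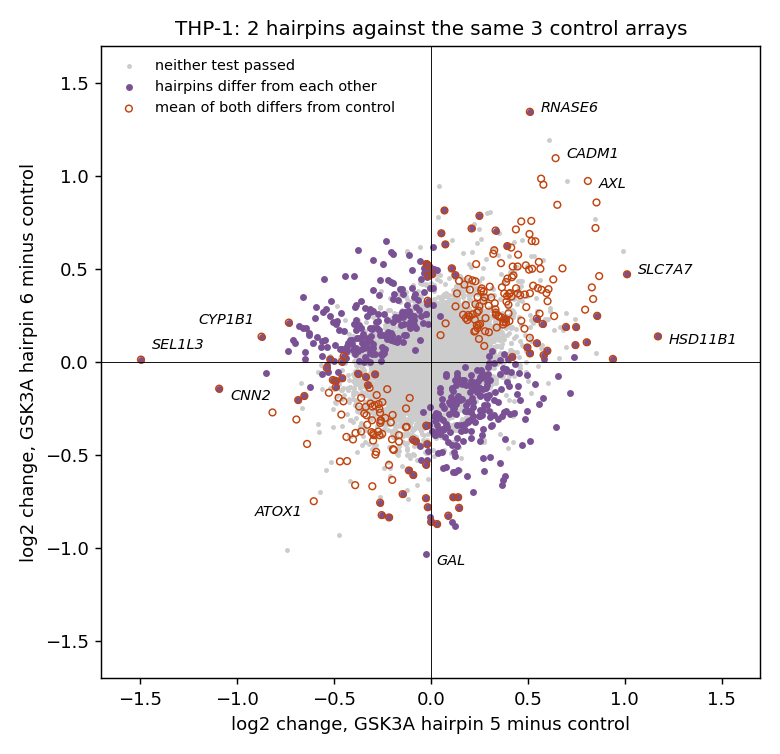
Log2 change of each of the 12165 genes with hairpin 5 (x axis) and hairpin 6 (y axis), each against the same 3 control arrays, so the axes share those arrays. Open circles mark the 244 genes whose mean of both hairpins differed from control, and purple points the 471 genes that differed between the hairpins. RNASE6, CADM1 and AXL lie high with both, whereas SEL1L3, CNN2 and HSD11B1 moved with hairpin 5 and GAL with hairpin 6.

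The 15 largest rises with 1 sign in both hairpins are described gene by gene, and no theme was tested among them. RNASE6 encodes an antimicrobial ribonuclease of monocytes and neutrophils. Its normalized intensity was 39.0 and 47.6 with hairpin 5, 93.4 and 86.0 with hairpin 6, and 21.2, 25.3 and 30.7 in controls. All 4 hairpin arrays lay above the controls, and hairpin 6 lay well above hairpin 5. RNASE6 rose by log2 0.93 ± 0.13 (limma, adjusted p = 9.0e-05), and the hairpins differed by −0.84 ± 0.17, hairpin 5 minus hairpin 6 (adjusted p = 0.00303). The change was 0.99 within plate columns 1 to 6 and 0.79 within columns 7 to 11.

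ALOX5AP and LTC4S act in the synthesis of cysteinyl leukotrienes, lipid mediators that myeloid cells make from arachidonic acid. ALOX5AP, which presents arachidonic acid to the lipoxygenase, read 976 and 1009 with hairpin 5 and 1241 and 1114 with hairpin 6, against 679.6, 695 and 690.3 in controls. LTC4S, the synthase that joins glutathione to the leukotriene, read 69.3 and 117 with hairpin 5 and 112 and 133 with hairpin 6, against 64.7, 51.1 and 50.6 in controls. Neither gene overlapped between the groups, although 1 hairpin 5 array of LTC4S lay only just above the highest control. ALOX5AP rose by log2 0.64 ± 0.10 (limma, adjusted p = 0.000231), with 0.52 and 0.76 for hairpins 5 and 6, and LTC4S rose by 0.77 ± 0.14 (adjusted p = 0.00248), with 0.58 and 0.95. Within plate columns 1 to 6 and 7 to 11 the changes were 0.67 and 0.61 for ALOX5AP, and 0.50 and 1.08 for LTC4S. Other genes of this pathway were looked up after these values were seen. ALOX5, the lipoxygenase itself, averaged 63.5 on hairpin arrays and 44.5 on control arrays and rose by 0.38 ± 0.09 (adjusted p = 0.0163), with overlap of the groups, and LTA4H, which takes the intermediate to another leukotriene, did not pass at −0.05 (0.997).

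The RefSeq promoter windows of these 3 genes are shown because the genes rose together and are genes of myeloid cells. Each runs from 250 bases before to 50 bases after the start on build GRCh38.p14, plus strand, and capitals mark GAGGAA or its reverse complement TTCCTC, purine-rich letters that the myeloid factor PU.1 can bind. RNASE6 is at chr14:20781018-20781317, ALOX5AP at chr13:30713235-30713534 and LTC4S at chr5:179793736-179794035.
RNASE6: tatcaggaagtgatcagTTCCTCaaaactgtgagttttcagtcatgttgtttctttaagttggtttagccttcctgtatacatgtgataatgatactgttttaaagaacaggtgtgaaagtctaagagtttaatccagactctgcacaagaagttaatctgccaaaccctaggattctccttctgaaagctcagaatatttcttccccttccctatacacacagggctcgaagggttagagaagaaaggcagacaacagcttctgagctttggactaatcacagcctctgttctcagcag
ALOX5AP: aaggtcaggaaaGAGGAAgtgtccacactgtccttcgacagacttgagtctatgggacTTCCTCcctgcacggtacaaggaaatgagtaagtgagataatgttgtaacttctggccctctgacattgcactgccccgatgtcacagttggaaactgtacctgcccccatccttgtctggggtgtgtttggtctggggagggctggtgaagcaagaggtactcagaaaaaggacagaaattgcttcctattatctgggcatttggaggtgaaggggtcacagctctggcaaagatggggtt
LTC4S: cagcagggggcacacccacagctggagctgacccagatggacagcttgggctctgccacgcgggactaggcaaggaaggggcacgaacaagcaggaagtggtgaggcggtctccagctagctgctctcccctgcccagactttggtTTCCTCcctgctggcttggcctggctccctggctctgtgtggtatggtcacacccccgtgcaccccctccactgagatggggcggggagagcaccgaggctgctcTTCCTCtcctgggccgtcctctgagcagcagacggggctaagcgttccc
Of the 15 leading rising genes, 13 had a window in the RefSeq table and 6 of these held the letters on either strand (RNASE6, TNFRSF21, TRAF3IP3, LTC4S, PTX3 and ALOX5AP). Of the 15 leading falling genes, 11 had a window and 1, CEACAM6, held them. The share over all 35116 windows was 27.9%. A match is a description of the letters and not a site, and factor binding was not measured.

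PTX3, a secreted pattern recognition protein, was dimmer at 60.2 and 57.8 with hairpin 5 and 35.7 and 46.0 with hairpin 6, against 24.4, 28.1 and 23.0 in controls. All hairpin arrays lay above the controls, and PTX3 rose by log2 0.67 ± 0.18 (limma, adjusted p = 0.0439). Its call was lost without any 1 of the 7 arrays (adjusted p from 0.0546 to 0.182).

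Among surface receptors, AXL, a receptor tyrosine kinase that takes part in the uptake of dying cells, read 164 and 133 with hairpin 5 and 160.4 and 174 with hairpin 6, against 71.4, 72.0 and 89.5 in controls. The groups did not overlap, and AXL rose by log2 0.89 ± 0.20 (limma, adjusted p = 0.0175), a call that was lost without control replicate 1 or 2, hairpin 5 replicate 1 or hairpin 6 replicate 2 (adjusted p up to 0.0925) and with a pseudocount of 1 (0.175). TNFRSF21, also known as death receptor 6, read 261 and 279 with hairpin 5 and 248 and 296 with hairpin 6, against 131, 148 and 148 in controls. It rose by 0.86 ± 0.17 (adjusted p = 0.00393), by nearly the same amount with each hairpin (0.85 and 0.86). CADM1, an adhesion molecule of the immunoglobulin family, read 85.3 and 90.7 with hairpin 5 and 100.5 and 158 with hairpin 6, against 54.8, 44.5 and 52.95 in controls. Its hairpin 6 arrays lay far apart, and it rose by 0.87 ± 0.15 (adjusted p = 0.00153).

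Of the 15 leading genes, 3 encode adaptors of immune signalling. TRAF3IP3, a partner of TRAF3, read 212 and 219.6 with hairpin 5 and 192 and 200.5 with hairpin 6, against 98.4, 110.5 and 132 in controls. SLA, a Src-like adaptor that dampens receptor signalling, read 117 and 97.2 with hairpin 5 and 131 and 116 with hairpin 6, against 67.9, 63.2 and 80.5 in controls. FYB1, an adaptor that links receptors to the cytoskeleton, read 143 and 131 with hairpin 5 and 177 and 165 with hairpin 6, against 92.2, 94.2 and 97.9 in controls. None of the 3 overlapped with the controls. The changes were log2 0.78 ± 0.14 for TRAF3IP3 (limma, adjusted p = 0.00196), 0.60 ± 0.09 for SLA (0.000129) and 0.61 ± 0.15 for FYB1 (0.0223), and the FYB1 call was lost without any 1 of the 7 arrays (0.0527 to 0.103).

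Among the rest, SLC7A7, a transporter of basic amino acids, had the smallest p of the 15 leading rising genes. It read 115 and 137 with hairpin 5 and 84.6 and 77.8 with hairpin 6, against 50.4, 57.0 and 54.9 in controls, and rose by log2 0.74 ± 0.09 (limma, adjusted p = 8.0e-06). Both hairpins lay above the controls, hairpin 5 by the larger amount (1.01 against 0.47, difference 0.54 ± 0.11, adjusted p = 0.00453). ST3GAL6, a sialyltransferase that builds selectin ligands, rose by 0.75 ± 0.14 (adjusted p = 0.00377), and ARID5B, a DNA-binding chromatin cofactor, by 0.78 ± 0.13 (0.00134), with averages of 73.1 on hairpin arrays and 35.7 on control arrays. PSMB9, a subunit of the immunoproteasome, read 796 and 877 with hairpin 5 and 552 and 689 with hairpin 6, against 462, 471 and 455 in controls, and rose by 0.62 ± 0.12 (adjusted p = 0.00325).

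HSD11B1, which turns cortisone into active cortisol, moved with 1 hairpin. It read 262 and 276 with hairpin 5 and 119.8 and 127 with hairpin 6, against 104, 105 and 124 in controls. The hairpin 6 arrays overlapped with the controls. The mean passed at log2 0.65 ± 0.16 (limma, adjusted p = 0.0274) and was lost without any 1 of the 7 arrays (0.0508 to 0.141).

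**Figure D2:**
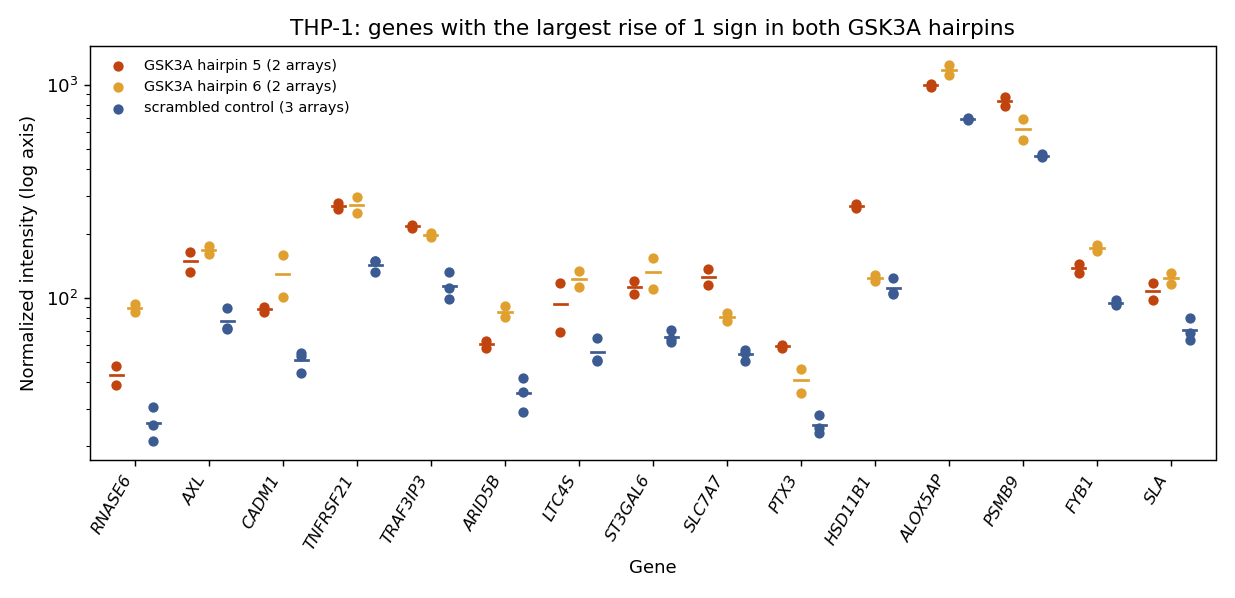
Normalized intensity (log axis) of the 15 genes with the largest rise among those with 1 sign in both hairpins, on 2 arrays each of GSK3A hairpins 5 and 6 and on 3 control arrays, with a bar at each group's mean. All hairpin arrays lie above the controls except for HSD11B1, whose hairpin 6 arrays reach 119.8 and 127 beside controls of up to 124.

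The 15 largest falls with 1 sign in both hairpins ran from log2 −0.68 to −0.42, and no theme was tested among them. ATOX1, the chaperone that passes copper to the copper pumps, read 291 and 309.7 with hairpin 5 and 278 and 263 with hairpin 6, against 427, 496 and 475 in controls. All hairpin arrays lay well below the controls, and ATOX1 fell by log2 −0.68 ± 0.13 (limma, adjusted p = 0.0051), with −0.67 in plate columns 1 to 6 and −0.70 in columns 7 to 11. MTHFD2, a mitochondrial enzyme of the folate cycle, read 661 and 672 with hairpin 5 and 975 and 988 with hairpin 6, against 1165, 1232 and 1166 in controls. The groups did not overlap, but the hairpin 5 arrays lay far lower. The MTHFD2 change of −0.54 ± 0.14 passed narrowly (adjusted p = 0.0457) and was lost without any 1 of the 7 arrays (0.113 to 0.181), under median scaling (0.0538), cyclic loess (0.0756), the values as deposited (0.0537) and a pseudocount of 1 (0.0543).

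CEACAM6, a cell adhesion molecule of granulocytes, read 30.6 and 35.7 with hairpin 5 and 39.3 and 41.4 with hairpin 6, against 58.6, 62.5 and 60.4 in controls. It fell by log2 −0.54 ± 0.08 (limma, adjusted p = 9.9e-05), with no overlap. PTK2, the focal adhesion kinase, read 48.2 and 59.1 with hairpin 5 and 39.9 and 43.3 with hairpin 6, against 78.8, 66.5 and 80.4 in controls, and fell by −0.53 ± 0.07 (8.7e-05). CNN2, an actin-binding calponin, read 110.5 and 118 with hairpin 5 and 256 and 216 with hairpin 6, against 246, 274 and 264 in controls. Hairpin 5 lay far below the controls, and hairpin 6 overlapped with them. The mean change of CNN2 was −0.62 ± 0.08 (adjusted p = 1.1e-05), and the hairpins differed by −0.95 ± 0.10, hairpin 5 minus hairpin 6 (6.7e-07).

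RRN3, which brings RNA polymerase I to the ribosomal RNA genes, read 179 and 167 with hairpin 5 and 96.1 and 118 with hairpin 6, against 188, 211 and 211 in controls. It fell by log2 −0.53 ± 0.08 (limma, adjusted p = 0.000437), mostly with hairpin 6 (−0.84, against −0.22 for hairpin 5, adjusted p of the difference = 0.000605). GPBP1L1 (−0.54 ± 0.11), MTMR9, a myotubularin-related protein (−0.51 ± 0.07), and FMR1, the RNA-binding protein of fragile X syndrome (−0.49 ± 0.10), also fell, with the larger change in hairpin 6. Without control replicate 2 the FMR1 call was lost (0.0606). PIP4K2C, a phosphoinositide kinase, fell by −0.50 ± 0.10 and TRIM36, a ubiquitin ligase, by −0.42 ± 0.07, both by nearly the same amount with each hairpin.

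The neurofilament gene NEFH fell by log2 −0.50 ± 0.09 (limma, adjusted p = 0.00137) and NFYC, a subunit of the CCAAT-binding factor NF-Y, by −0.44 ± 0.11 (0.0209), both with the larger change in hairpin 5. NFYC averaged 1792 on hairpin arrays and 2409.7 on control arrays, and its call was lost without each control array in turn, without hairpin 5 replicate 1 and without hairpin 6 replicate 2 (up to 0.0963). The kinase CILK1 (−0.48 ± 0.10, adjusted p = 0.00673) was dim, and its call was lost without control replicate 3 (0.0565). BBX (−0.43 ± 0.10, adjusted p = 0.0201) overlapped with the controls and was lost without control replicate 2 or 3, without either hairpin 5 array and without hairpin 6 replicate 2 (up to 0.142).

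**Figure D3:**
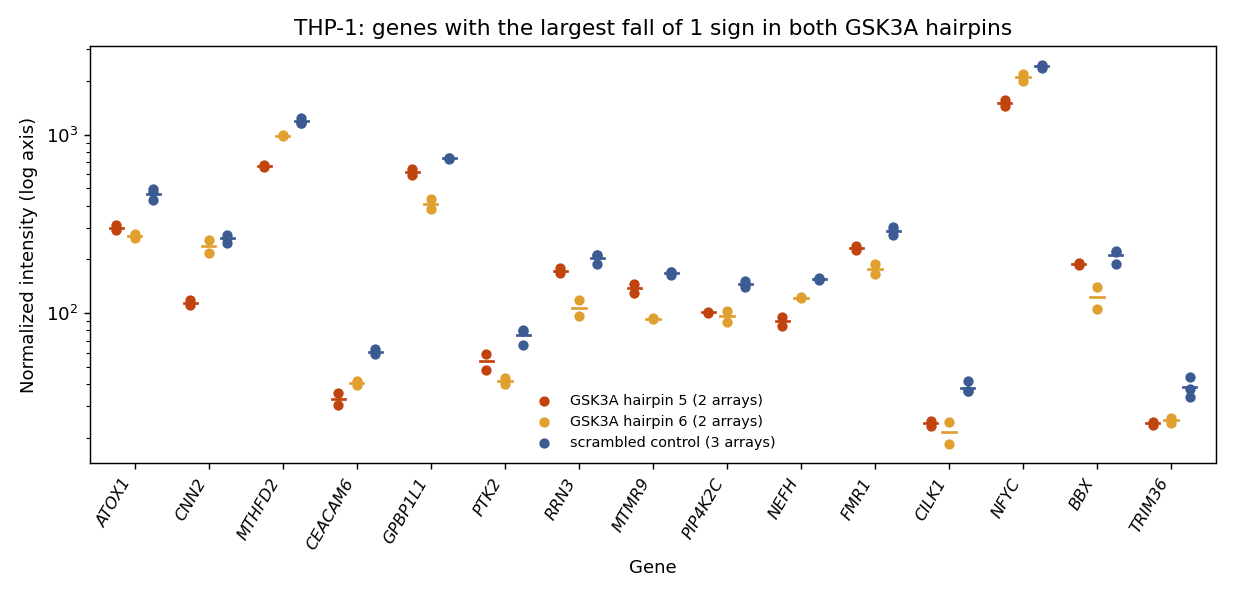
Normalized intensity (log axis) of the 15 genes with the largest fall among those with 1 sign in both hairpins, on 2 arrays each of GSK3A hairpins 5 and 6 and on 3 control arrays, with a bar at each group's mean. CNN2 and BBX overlap with the controls in 1 hairpin. ATOX1 lies between 263 and 309.7 on all hairpin arrays and between 427 and 496 on the controls.

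Each hairpin was also set against the controls on its own. With hairpin 5, 154 genes rose and 141 fell (limma, 1.27% and 1.16% of genes tested, 2.42% together), and with hairpin 6, 149 rose and 155 fell (1.22% and 1.27%, 2.5% together). The comparisons share the 3 control arrays. Called with both hairpins were 36 genes higher in both, 15 lower in both and 6 in opposite directions. Of the hairpin 5 calls 17.3% were called the same way with hairpin 6, and of the hairpin 6 calls 16.8% with hairpin 5. Of the 244 genes called in the mean, 228 had 1 sign in both hairpins. The hairpin 5 count was 162 without control replicate 1 and 129 and 102 without hairpin 5 replicate 1 or 2, and the hairpin 6 count was 168 and 132 without hairpin 6 replicate 1 or 2. With hairpin 5 the largest rises were HSD11B1 (log2 1.17 ± 0.19), SLC7A7 (1.01 ± 0.10), SOBP (0.94 ± 0.12), PTX3 (0.87 ± 0.21), the potassium channel subunit KCNMB1 (0.86 ± 0.12) and TNFRSF21 (0.85 ± 0.20). The largest falls were SEL1L3 (−1.50 ± 0.21), CNN2 (−1.09 ± 0.09), CYP1B1, a cytochrome P450 that oxidizes estrogens (−0.87 ± 0.09), the membrane protein EFR3A (−0.85 ± 0.16), MTHFD2 (−0.82 ± 0.17) and the palmitoyltransferase ZDHHC3 (−0.74 ± 0.13). SEL1L3 read 272 and 311 with hairpin 5 and 831 and 884 with hairpin 6, against 821, 815 and 914 in controls, so that hairpin 6 stood at the control level. Adjusted p-values of these calls ran from 2.0e-08 for CNN2 to 0.0216 for PTX3. Without 1 array, the calls of PTX3, TNFRSF21, EFR3A and MTHFD2 were lost in at least 1 fit (adjusted p up to 0.202, for TNFRSF21 without hairpin 5 replicate 2). ZDHHC3 was lost when the probe sets of a gene were averaged (log2 −0.29, adjusted p = 0.575).

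With hairpin 6 the largest rises were RNASE6 (log2 1.35 ± 0.16), CADM1 (1.10 ± 0.18), ARID5B (0.99 ± 0.16), AXL (0.97 ± 0.24), LTC4S (0.95 ± 0.17) and TNFRSF21 (0.86 ± 0.20). The largest falls were the neuropeptide GAL (−1.03 ± 0.23), the histone H2BC5 (−0.93 ± 0.24), SLC35B1, a nucleotide carrier of the endoplasmic reticulum (−0.88 ± 0.18), GPX7, a peroxidase of the same compartment (−0.87 ± 0.12), the cholesterol enzyme MSMO1 (−0.86 ± 0.21) and the cohesin subunit SMC1A (−0.86 ± 0.10). GAL read 96.9 and 107 with hairpin 5 and 42.5 and 43.1 with hairpin 6, against 96.5, 106 and 111 in controls. SMC1A read 877 and 954 with hairpin 5 and 443 and 556 with hairpin 6, against 916, 959 and 868 in controls. In both genes hairpin 5 overlapped with the controls and hairpin 6 lay far below them. Adjusted p-values of these calls (limma) ran from 2.2e-06 for SMC1A to 0.0273 for H2BC5. Without 1 array, the calls of CADM1, AXL, LTC4S, TNFRSF21, GAL, H2BC5, SLC35B1 and MSMO1 were lost in at least 1 fit (up to 0.323, for H2BC5 without hairpin 6 replicate 2).

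Set directly against each other, a test that uses no control array, the hairpins differed in 471 genes (limma, 3.87%), 240 higher with hairpin 5 (1.97%) and 231 lower (1.9%), a larger count than either gave against control. The count was 252 and 239 without hairpin 5 replicate 1 or 2, and 278 and 259 without hairpin 6 replicate 1 or 2. Genes higher with hairpin 5 than with hairpin 6 were HSD11B1 (log2 1.03 ± 0.21), SIGLEC1, the sialoadhesin of macrophages (1.03 ± 0.12), PCYOX1L (1.01 ± 0.18), GAL (1.00 ± 0.25) and SLC35B1 (1.00 ± 0.20). SIGLEC1 read 209 and 129 with hairpin 5 and 78.2 and 67.5 with hairpin 6, against 135, 116 and 121 in controls. Here hairpin 6 lay below all controls, while the hairpin 5 arrays lay far apart from each other. Genes lower with hairpin 5 were SEL1L3 (−1.51 ± 0.23), CYP1B1 (−1.01 ± 0.10), the cyclin-like CCNG2 (−1.01 ± 0.14), MS4A4A, a membrane protein of macrophages (−0.55 with hairpin 5 and 0.45 with hairpin 6 against control), and the noncoding RNA LINC01140 (−0.98 ± 0.08, adjusted p = 2.4e-08). MS4A4A read 110.2 and 108 with hairpin 5 and 225 and 243 with hairpin 6, against 158, 177 and 166 in controls. The hairpins thus lay on opposite sides of the controls. In the controls of the other lines LINC01140 averaged 6.57 to 6.94 and SIGLEC1 7.96 to 9.59. The errors of these genes draw on those lines as well. They can be narrower, and the p-values smaller, than the THP-1 arrays alone would give. The GAL difference (adjusted p = 0.0169) was lost without each hairpin array in turn (up to 0.160).

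Mature myeloid and monocyte genes, the list closest to the question of the study, included 3 that passed. Of 45 measured, 3 rose and 0 fell (limma, 6.67% called, against 2.01% of all genes), the list median was log2 0.09, and the median over all genes was 0.00. The members that rose were AIF1, a calcium-binding protein of macrophages (0.50 ± 0.10, adjusted p = 0.00395), ITGAM, the integrin alpha chain CD11b (0.51 ± 0.12, 0.0196), and the fractalkine receptor CX3CR1 (0.44 ± 0.11, 0.027). AIF1 read 1371 and 1410.1 with hairpin 5 and 1415 and 1349.8 with hairpin 6, against 895, 1028 and 1006 in controls. ITGAM read 179 and 181 with hairpin 5 and 194 and 226 with hairpin 6, against 127, 134 and 133 in controls. All 4 hairpin arrays lay above the controls in both genes, as in 24.4% of the list and 7.02% of all genes. The ITGAM call was lost in 6 and the CX3CR1 call in 5 of the 7 fits that left out 1 array (up to 0.0981 and 0.14).

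Other markers of maturation did not pass. CD14, the endotoxin co-receptor, was dim at 15.1 on hairpin arrays and 13.1 on control arrays (log2 0.09 ± 0.06, limma, adjusted p = 0.773). The costimulatory molecule CD86 read 8.92 and 7.40 (0.09 ± 0.27, 0.997), and CSF1R, the receptor for the macrophage growth factor, 34.0 and 37.8 (−0.11 ± 0.07, 0.754). The proteoglycan VCAN read 37.9 and 41.2 with hairpin 5 and 42.4 and 27.1 with hairpin 6, against 24.5, 27.4 and 29.3 in controls (0.29 ± 0.09, 0.104). Among 34 innate sensing and secreted innate proteins, 2 rose (RNASE6 and PTX3) and 0 fell (5.88%, against 2.01% of all genes, median 0.02). The deaminase ADA2 read 180.5 and 182 with hairpin 5 and 236 and 208 with hairpin 6, against 105, 106 and 104 in controls. The groups did not overlap, but ADA2 did not pass (0.84 ± 0.33, 0.284). Its error draws on the other lines as well, so the missed threshold does not show that ADA2 was unchanged in THP-1. Of the 15 monocyte defining markers 1 rose, the integrin chain ITGAL (0.33 ± 0.09, 0.0473), and that call was lost without any 1 of the 7 arrays (0.052 to 0.225).

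Genes of immature myeloid cells did not pass in the mean either. With hairpin 6 alone, 1 of the 19 measured stem and progenitor regulators rose, and of all genes 1.22% rose with hairpin 6. None of 12 primary granule genes, 19 stem and progenitor regulators, 25 Wnt and beta-catenin genes or 17 glycogen metabolism genes passed in either direction in the mean of both hairpins (limma), and their medians were −0.08, −0.02, 0.04 and −0.02 on the log2 scale. Of all genes 2.01% passed, and at that share lists this short would hold few calls in any case. The granule protease PRTN3 read 317 and 310.3 with hairpin 5 and 407 and 440.4 with hairpin 6, against 503, 497 and 517 in controls, and the protease CTSG read 2890.0 and 3110.2 with hairpin 5 and 2958 and 2686 with hairpin 6, against 3787, 3869.5 and 3869.5 in controls. All hairpin arrays of both lay below the controls, as in 33.3% of the granule list and 6.16% of all genes. Yet the changes of −0.46 ± 0.30 and −0.40 ± 0.32 did not pass (adjusted p = 0.757 and 0.862). These errors draw on the other lines as well, so the missed thresholds do not show that PRTN3 and CTSG were unchanged in THP-1. MYB, a factor of proliferating progenitors, averaged 1851 on hairpin arrays and 2189 on control arrays (−0.25 ± 0.10, 0.318). MPO, MEIS1, CTNNB1, which encodes beta-catenin, and the Wnt effector LEF1 were at −0.13 ± 0.11, −0.02 ± 0.15, −0.05 ± 0.08 and 0.10 ± 0.07, with adjusted p of 0.874, 0.997, 0.996 and 0.805. TCF7L2, another Wnt effector, averaged 85.8 on hairpin arrays and 65.4 on control arrays and did not pass (0.32 ± 0.10, 0.139). Of the glycogen genes, the branching enzyme GBE1 averaged 337 on hairpin arrays and 415 on control arrays (−0.29 ± 0.14, 0.511).

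Few growth genes passed the test. MYC averaged 1312 on hairpin arrays and 1471 on control arrays (log2 −0.16 ± 0.21, limma, adjusted p = 0.974). Of 24 MYC and ribosome biogenesis genes, 0 rose and 1 fell, RRN3 (4.17% called, against 2.01% of all genes), and the list median was 0.06, with 0.22 for hairpin 5 and −0.08 for hairpin 6. With hairpin 5 the polyamine enzyme SRM (0.58) and the nucleoside kinase NME1 (0.41) rose, whereas with hairpin 6 they stood at −0.19 and −0.28. None of 29 mitotic genes passed, although 31% of them had all hairpin arrays above the controls, against 7.02% of all genes, and their median was 0.14, with BIRC5 at 415 on hairpin arrays and 315 on control arrays (0.38 ± 0.20, 0.548). None of 29 DNA replication genes, 24 genes of D cyclins, CDK inhibitors and the MYC network, 19 p53 targets or 27 apoptosis regulators passed in the mean of both hairpins, with medians of 0.00, 0.00, 0.00 and 0.02.

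ATF4, serine and one-carbon genes, which respond to amino acid shortage, gave 0 rising and 1 falling gene of 31 (MTHFD2, 3.23% called, against 2.01% of all genes), yet their median was log2 0.19 and 48.4% of them had all hairpin arrays above the controls, against 7.02% of all genes. The mitochondrial serine enzyme SHMT2 read 1722 and 1659 with hairpin 5 and 1702 and 1625 with hairpin 6, against 1330.2, 1376 and 1458 in controls, and did not pass (0.27 ± 0.10, limma, adjusted p = 0.229). Asparagine synthetase, ASNS, averaged 591 on hairpin arrays and 396 on control arrays (0.56 ± 0.42, 0.829), with an error that draws on the other lines as well. Of 20 unfolded protein response genes 0 passed, with a median of 0.08 (0.12 with hairpin 5 and −0.01 with hairpin 6).

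In the lysosome and autophagy list 1 of 47 genes rose, TFEB, the factor that drives the list (log2 0.34 ± 0.09, limma, adjusted p = 0.0457), 0 fell (2.13% called, against 2.01% of all genes), and the median was 0.02. The TFEB call was lost without any 1 of the 7 arrays (0.052 to 0.204) and with the mean of its probe sets (log2 0.22, adjusted p = 0.345). The membrane protein LAMP2 fell with hairpin 5 (−0.65) and stood at 0.02 with hairpin 6. Of 37 interferon response genes, 2 rose with the mean, PSMB9 and LGALS3BP (5.41%, against 2.01% of all genes, median 0.08). LGALS3BP encodes a secreted galectin ligand. It read 33.7 and 24.0 with hairpin 5 and 42.8 and 52.5 with hairpin 6, against 26.1, 20.8 and 21.0 in controls. LGALS3BP rose by 0.46 ± 0.06 (limma, adjusted p = 1.1e-05), and its lower hairpin 5 array lay inside the range of the controls. That error draws on the other lines as well, where the gene was dim. It can be narrower than the THP-1 arrays alone would give. The hairpins gave different counts in this list, a difference that was not tested. With hairpin 5, 4 rose and 0 fell, and with hairpin 6, 1 rose and 3 fell, with medians of 0.17 and −0.07. Of all genes, 1.27% rose and 1.16% fell with hairpin 5, and 1.22% rose and 1.27% fell with hairpin 6. The antiviral protein MX1 read 532 and 557 with hairpin 5 and 259 and 396 with hairpin 6, against 285, 357 and 383 in controls, and IFIT1 stood at 0.38 with hairpin 5, which did not pass, and fell with hairpin 6 (−0.61).

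Cholesterol and fatty acid genes gave 0 calls of 23 in the mean and a median of log2 −0.10, with 0.02 for hairpin 5 and −0.22 for hairpin 6. With hairpin 6, the desaturase SCD (−0.74) and the isoprenoid enzyme IDI1 (−0.61) fell (limma). SCD read 2415 and 2168 with hairpin 5 and 1467 and 1510.2 with hairpin 6, against 2314, 2463 and 2704 in controls. In the NRF2, metallothionein and iron list 1 of 25 genes fell, ATOX1 (4%, against 2.01% of all genes), the median was −0.09 and 32% had all hairpin arrays below the controls, against 6.16% of all genes. The metallothionein MT1X read 400.5 and 386 with hairpin 5 and 491 and 489 with hairpin 6, against 556, 535 and 548 in controls (−0.31 ± 0.10, adjusted p = 0.158), and MT2A averaged 464 on hairpin arrays and 584 on control arrays (−0.32 ± 0.11, 0.141). With hairpin 5, MT1X and MT1H fell (−0.46 and −0.39), and with hairpin 6 they stood at −0.15 and −0.22 and did not pass. None of 30 oxidative phosphorylation, 29 hypoxia and glycolysis, 17 MHC class II or 31 NF-kB and inflammation genes passed in the mean, with medians of 0.01, 0.01, 0.02 and 0.03.

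Most markers of other cell types were low. None of 13 erythroid, 14 megakaryocyte, 21 T and NK cell, 13 B cell or 19 epithelial and stromal markers passed (limma, against 2.01% of all genes), with medians between −0.0049 and 0.02 on the log2 scale. Defining genes such as HBB (9.74 on hairpin arrays and 9.93 on control arrays), CD3D (11.4 and 11.8), CD79A (9.84 and 9.31), PF4 (11.6 and 12.1) and EPCAM (4.84 and 5.11) lay below the array medians. Of these 5 lists, 6 members averaged over 32 intensity units, among them NCAM1 of the T and NK list. NCAM1 read 67.2 and 82.9 with hairpin 5 and 96.5 and 86.1 with hairpin 6, against 56.6, 62.3 and 59.4 in controls. All its hairpin arrays lay above the controls, as in 9.52% of the T and NK list and 7.02% of all genes, but it did not pass. Summed levels were 121 to 140.2 on hairpin arrays and 132 to 138 on control arrays for the erythroid list, 135 to 160.4 and 141 to 149.7 for the megakaryocyte list, and 274 to 297 and 267 to 272 for the T and NK list. They were 147 to 174 and 151 to 163 for the B cell list, and 1835 to 2269 and 2069.6 to 2105 for the epithelial and stromal list, in which VIM averaged 1083 and 1200.3.

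**Figure D4:**
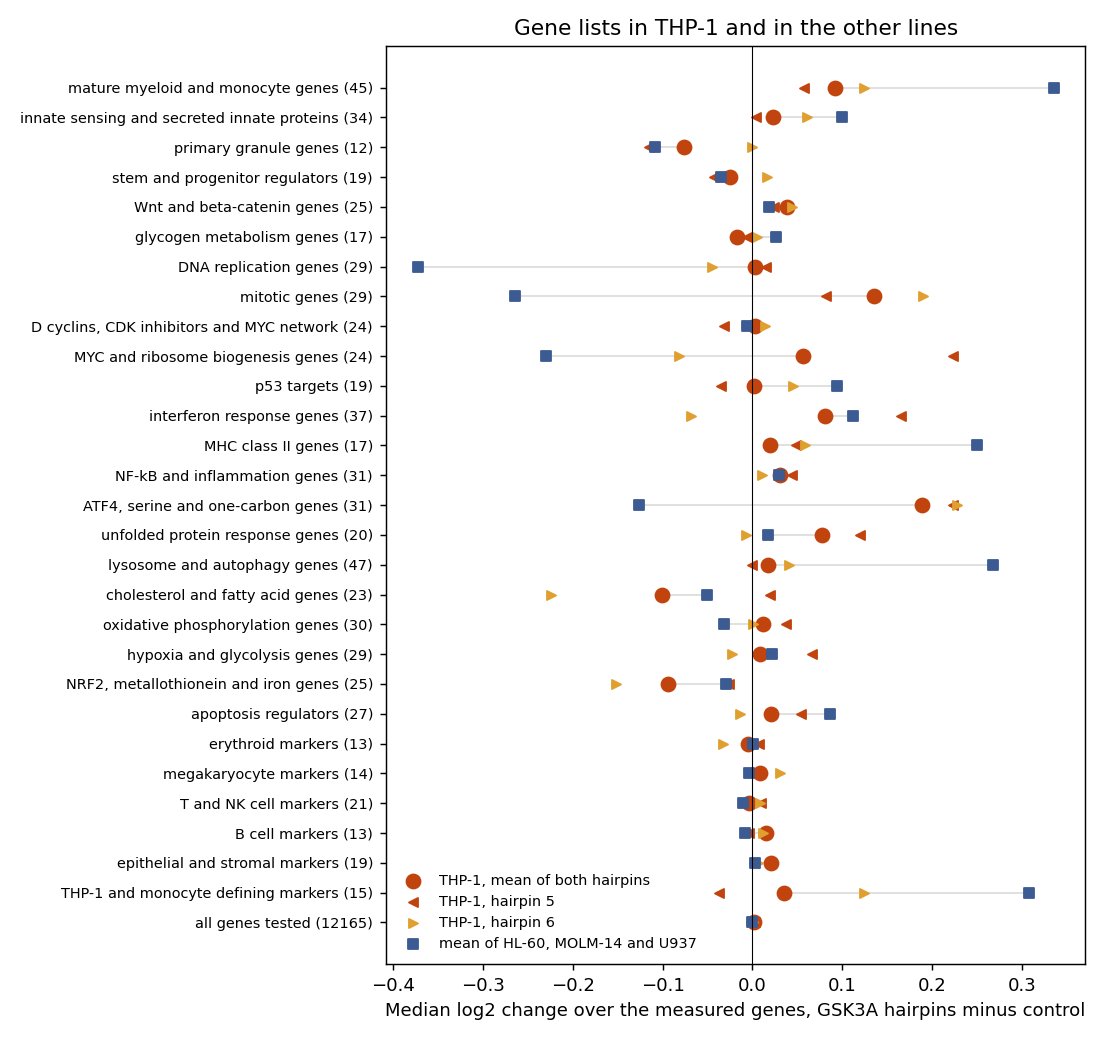
Median log2 change of each gene list (number of measured genes in brackets) in THP-1 for the mean of both hairpins (large circles), hairpin 5 and hairpin 6 (triangles), and the mean of HL-60, MOLM-14 and U937 (squares). THP-1 medians lie between −0.10 and 0.19 for the mean of both hairpins and between −0.22 and 0.23 for single hairpins, and the mean of the other lines reaches 0.34 for mature myeloid genes and −0.37 for DNA replication genes. The DNA replication median differed among those lines, at −0.0002 in HL-60, −0.99 in MOLM-14 and −0.175 in U937.

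THP-1 was then set against the mean GSK3A change of the other 3 lines, with the difference itself tested. It passed for 363 genes (limma, 2.98%), 168 with a higher (1.38%) and 195 with a lower (1.6%) change in THP-1. The direction depended on the scaling, with 46.3% of them higher as reported and 57.8% under median scaling. The count was 230, 222 and 192 without THP-1 control replicate 1, 2 or 3, and 222 without hairpin 5 replicate 2. In the mature myeloid list 6 members passed, all with a lower change in THP-1, and the list median was log2 0.09 in THP-1 and 0.34 in the other lines. TYROBP changed by 0.14 in THP-1 and by 0.74 in the other lines (adjusted p of the difference = 0.00311), and the lysosomal fucosidase FUCA1 by 0.11 and 0.83 (0.0119). The difference for CD86 missed the threshold, with 0.09 in THP-1, 1.28 in HL-60, 1.30 in MOLM-14 and 0.98 in U937 (0.0523). In the lysosome list 9 members had a lower change in THP-1 (medians of 0.02 and 0.27), among them the autophagy gene WIPI1 (−0.12 and 0.69, 0.000781) and the proteases CTSZ (−0.26 and 0.43, 0.00425) and CTSB (−0.10 and 0.50, 0.011). In the MYC and ribosome list 7 had a higher change in THP-1 (medians of 0.06 and −0.23).

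CADM1 rose in THP-1 (log2 0.87) and stood at −0.11 in HL-60, −0.08 in MOLM-14 and 0.11 in U937, a difference of 0.90 ± 0.18 (limma, adjusted p = 0.00381). SLC7A5, an importer of large amino acids, and BCAT1, which starts the breakdown of branched ones, differed by 0.81 ± 0.16 and 0.61 ± 0.14 (0.00364 and 0.0108), and EIF2B3, a subunit of a translation initiation factor, by 0.61 ± 0.08 (0.000104). SLC7A5 read 656 and 667 with hairpin 5 and 361 and 343 with hairpin 6, against 377, 420.4 and 395 in THP-1 controls, so hairpin 5 lay above and hairpin 6 below the controls. Histone genes lay on the other side. H2BC5, H2AC6 and H2BC12 changed by −0.70, −0.53 and −0.49 in THP-1, none of which passed (0.0634, 0.275 and 0.162), and by 0.49, 0.58 and 0.56 in the other lines. The differences were −1.19 ± 0.23, −1.11 ± 0.24 and −1.05 ± 0.19 (0.00306, 0.00796 and 0.00206). CD1D, which presents lipids, differed by −0.94 ± 0.16 (0.00101) and TSC22D3, a glucocorticoid-induced factor, by −1.10 ± 0.30 (0.0432), a call that was lost without any 1 of the 7 THP-1 arrays (up to 0.134). The BCAT1 call was lost without control replicate 3 (0.0537).

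**Figure D5:**
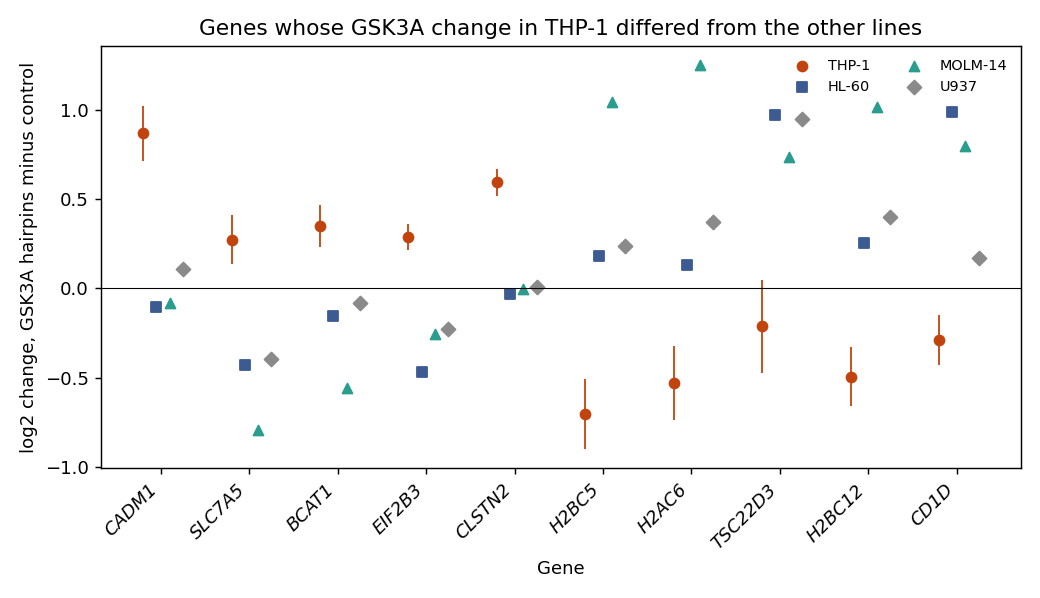
Log2 change with the GSK3A hairpins against the control of the same line for the 5 genes with the largest difference each way between THP-1 (circles, with the standard error of the fit) and the other lines. CADM1, SLC7A5, BCAT1, EIF2B3 and CLSTN2 lie above 0 in THP-1, and the histone genes H2BC5, H2AC6 and H2BC12 lie below 0 in THP-1 and above 0 in HL-60, MOLM-14 and U937. CLSTN2 read under 10 units in the controls of the other lines, where a fall or a small rise could hardly be measured.

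Some changed genes are high in THP-1 alone among the 4 lines. In the controls, 247 genes read at least 2-fold higher in THP-1 than in each other line, a list taken from these values and given as a description. With the hairpins 17 of them rose and 6 fell (limma, 9.31% called, against 2.01% of all genes), and the median change was log2 0.01. These 2 shares cannot be compared directly. The error of a gene draws on all 4 lines, and many of the listed genes are dim in the other lines. How far this raised the share called was not tested. All hairpin arrays lay above the controls for 10.1% of the list and below them for 8.91%, against 7.02% and 6.16% of all genes. The genes named here were chosen after their values were seen. ROBO1, a guidance receptor, averaged 353 on THP-1 hairpin arrays and 232 on THP-1 control arrays (0.58 ± 0.08, adjusted p = 4.9e-05), against 5.18, 5.41 and 5.40 in HL-60, MOLM-14 and U937 controls. TIMP3, a metalloproteinase inhibitor, averaged 481 on THP-1 hairpin arrays and 333 on control arrays (0.50 ± 0.05, 2.0e-06). TREM2, a lipid receptor of macrophages, averaged 310.1 on hairpin arrays and 224 on control arrays (0.44 ± 0.11, 0.0428). CLSTN2, a calsyntenin of the cell surface, averaged 64.7 on hairpin arrays and 37.2 on control arrays (0.59 ± 0.08, 2.6e-05). Control levels of ROBO1, TIMP3 and CLSTN2 in the other lines lay below 10 intensity units. A fall or a small rise could hardly be measured there, while a large rise could still show.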

How the data were processed

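Affymetrix high-throughput human arrays of 4 AML lines were analysed. The deposited intensity values are linear summaries of 22277 probe sets. RMA and MAS5 are named per the submitters' processing notes, but which of them gave the table, with its version and settings, is not given in the sources used here. All 44 arrays were taken to log2(intensity + 16) and quantile-normalized, since their medians spanned 0.154. Each gene kept the probe set with the highest mean, which left 12165 genes. limma 3.58.1 in R 4.3.3 was fitted to 20 groups of line and construct (24 residual degrees of freedom), with two-sided tests and Benjamini-Hochberg adjusted p over all genes. The number of arrays limits the precision. Tests were checked on simulated data with independent noise, of the same size in all lines for a gene. No spread between THP-1 hairpins or plate columns was simulated, so the check does not cover such spread.

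The members and the 28 gene lists were chosen with earlier results of these data known. Named genes are GSK3A and GSK3B, 15 rising and 15 falling in the mean with 1 sign in both hairpins, 6 each way per hairpin, 5 each way between hairpins and between lines, up to 4 per list by p, and 11 fixed genes. Genes under 32 units in both groups were left out of the first 3 kinds of ranking. Plate columns come from array names in the labels. Of 6 pairs of THP-1 arrays with the same replicate number, 0 correlated over 0.1 (−0.11 to 0.04), and the main fit used no pairing. That check cannot settle whether arrays were paired. The 2 arrays of a hairpin deviate from their mean by mirrored amounts, and control replicate 3 had no partner. Control replicate 2, in plate column 2, was set beside hairpin arrays in columns 10 and 11.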

Additional observations from a re-analysis of the deposited data

Results flagged for a closer look

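The GSK3A change in THP-1 differed from the mean change of HL-60, MOLM-14 and U937 for 23 of the named genes, by a test of the difference itself (limma, adjusted p under 0.05). The values below are THP-1 minus the other lines on the log2 scale. Groups held 2 or 3 arrays, so no array was tested as an outlier.

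The difference was above 0 for the adhesion gene CADM1 (0.90), the amino acid genes SLC7A5 (0.81) and BCAT1 (0.61), the translation factor subunit EIF2B3 (0.61), CLSTN2 (0.60), the replication licensing factor CDT1 (0.49), the galectin ligand LGALS3BP (0.49), the ribosome and growth genes SRM (0.44) and WDR12 (0.37), and the cyclin-dependent kinase CDK4 (0.32). Of these, CADM1, EIF2B3, CLSTN2 and LGALS3BP also rose in THP-1 itself. CLSTN2 and LGALS3BP averaged 37.2 and 22.6 in THP-1 controls and under 10 in the controls of each other line. Their differences thus set THP-1 against lines where a fall or a small rise could hardly be measured.

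The difference was below 0 for the histone genes H2BC5 (−1.19), H2AC6 (−1.11) and H2BC12 (−1.05), TSC22D3 (−1.10), the lipid-presenting CD1D (−0.94), the cholesterol enzyme MSMO1 (−0.75), the p53 target ZMAT3 (−0.67) and CYP1B1 (−0.48). It was also below 0 for PTK2 (−0.40), TRIM36 (−0.35), the phosphorylase kinase subunit PHKA2 (−0.33), CD14 (−0.32) and the caspase CASP10 (−0.29). Of these, PTK2 and TRIM36 also fell in THP-1 itself, and CYP1B1 fell there in the mean of both hairpins. CYP1B1 read 135 and 137 with hairpin 5 and 296 and 283 with hairpin 6, against 271, 253 and 262 in controls. Only its hairpin 5 arrays lay below the controls. PTK2 averaged 7.17 in HL-60 and 6.43 in U937 controls, CYP1B1 9.71 in U937 controls, and TRIM36 10.8 to 18.8 in the controls of the other lines, so a fall could hardly be measured there. CD14 changed by 1.21 in HL-60, 0.00 in MOLM-14 and 0.03 in U937, against 0.09 in THP-1.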

How the results depend on the processing

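Of 80 calls of named genes (one per gene and comparison), none changed sign under the 22 alternatives, and 51 passed in every fit that kept all plate columns and fixed hairpins. Within plate columns 1 to 6 alone 3 of 46 passed, within columns 7 to 11 alone 0 of 46, and with line and construct as a random block 4 of 36. The fits within plate columns took both hairpins of a line as replicates of each other. A pseudocount of 1 lost 8 calls, among them AXL, HSD11B1, NFYC, CX3CR1 and TFEB. A pseudocount of 64 lost 5 and averaging probe sets lost 4. The GSK3A change, which did not pass, ran from −0.0957 to 0.0259 without 1 array, and turned to 0.0259 with the replicate block and without control replicate 3, and to 0.0190 in plate columns 1 to 6, where GSK3B turned to 0.0567; the cause was not tested.

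The mean of both hairpins called 244 genes, and 144 with a pseudocount of 1, 1110 on THP-1 arrays only, 779 on the 7 arrays only, 905 with a plate column block, 23 and 4 within plate columns 1 to 6 and 7 to 11, 21 with the random block, and 121 to 193 without 1 array. Hairpin 5 called 295, and 1209, 914 and 1065 on THP-1 arrays, on the 7 arrays and with the plate block, 537 with the replicate block, and 102 to 290 without 1 array. Hairpin 6 called 304, and 1245, 981, 1062, 470 and 132 to 298 in the same order. Hairpin 5 against 6 called 471, and 1585, 1332, 1435, 974 and 239 to 466. THP-1 against the other lines called 363, and 1593 with the plate block, 883 with the replicate block, 9 and 4 within the plate columns, and 192 to 294 without 1 array. Whether the replicate numbers pair the arrays was not settled, and with the replicate block the mean of both hairpins called 366. Where leaving out an array left a hairpin with 1 array, that array is assumed to vary like the other groups.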
